A study of Mus musculus with 12 samples.

Results

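Col17a1, Lama3, Jup and Sfn were grouped as 4 genes of basal keratinocytes, the cells of the epidermis that sit on the basement membrane. Whether each of the 4 is limited to basal cells was not measured. The 4 genes were chosen by name, with earlier results of these data known. Each was read from the one probe set whose annotation names that gene and no other. They are 4 of the 5599 genes so named on the array. The samples were mouse skin excised after thermal injury, with 3 arrays of total RNA per time point (0 hours, 2 hours, 3 days, 14 days) and 12 in all. All 4 groups are labelled as one tissue from one injury model. The labels give no strain, sex, age, wound depth or pooling, nor the state of the 0 hours skin, burnt or not. Since the labels do not tie the 3 arrays of a time point to different mice, the spread behind each p-value may be technical. Values are signal intensities as deposited. Levels were compared only within a gene, because the probes of different genes differ in brightness. Different genes were set against each other by their log2 changes over the arrays, not by level.

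Basal keratinocytes hold the epidermis to the dermis through hemidesmosomes and to their neighbours through desmosomes and adherens junctions. In the hemidesmosome, collagen XVII (Col17a1) spans the membrane beside integrin alpha6 beta4 and is tied to keratin filaments by plectin and dystonin. Outside the cell the integrin binds laminin-332, a basement membrane protein that holds the products of Lama3 and Lamb3. Plakoglobin (Jup) links cadherins to the cytoskeleton in both kinds of cell-cell junction and is a relative of beta-catenin. Stratifin (Sfn), also called 14-3-3 sigma, is the epithelial member of the 14-3-3 family of phosphoprotein-binding adaptors, and in human cells a p53 target that holds cells before mitosis. During wound closure, keratinocytes at the edge loosen these anchors, migrate, and rebuild them. These statements are background and were not measured here.

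In the mouse genome (GRCm38.p6, RefSeq), Col17a1 lies on chromosome 19 from 47646341 to 47692042, Jup on chromosome 11 from 100368856 to 100397839, and Sfn on chromosome 4 from 133600556 to 133602168. The start regions of Col17a1, Jup and Sfn are printed because Jup and Sfn both had their highest signals at 14 days and Col17a1 its highest at 2 hours. Each runs from 250 bases before to 50 bases after an annotated start (GRCm38.p6), on the minus strand. The windows are chr19:47691993-47692292 for Col17a1, chr11:100397741-100398040 for Jup and chr4:133602119-133602418 for Sfn. For Col17a1 and Sfn this start is the upper end of the gene span given above. For Jup it lies inside that span, and the positions below count from it. Capitals mark matches to the motifs searched.
Col17a1: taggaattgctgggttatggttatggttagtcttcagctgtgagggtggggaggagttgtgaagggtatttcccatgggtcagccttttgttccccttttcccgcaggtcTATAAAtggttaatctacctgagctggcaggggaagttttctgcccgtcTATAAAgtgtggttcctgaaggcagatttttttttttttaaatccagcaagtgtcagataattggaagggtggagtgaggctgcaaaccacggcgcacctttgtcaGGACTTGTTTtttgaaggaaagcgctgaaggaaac
Jup: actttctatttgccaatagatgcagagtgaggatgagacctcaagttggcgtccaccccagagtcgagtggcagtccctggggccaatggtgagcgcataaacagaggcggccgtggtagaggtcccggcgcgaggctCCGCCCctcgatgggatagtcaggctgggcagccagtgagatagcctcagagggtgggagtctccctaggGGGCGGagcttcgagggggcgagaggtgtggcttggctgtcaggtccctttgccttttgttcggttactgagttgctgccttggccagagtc
Sfn: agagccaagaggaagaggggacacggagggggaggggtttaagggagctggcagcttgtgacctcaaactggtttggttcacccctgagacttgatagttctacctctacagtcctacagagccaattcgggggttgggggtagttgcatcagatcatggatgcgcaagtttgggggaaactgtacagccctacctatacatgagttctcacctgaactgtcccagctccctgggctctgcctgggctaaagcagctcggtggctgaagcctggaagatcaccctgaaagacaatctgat
The motifs, searched on both strands, were the TATA box, spelled TATAAA, the GC box, spelled GGGCGG, the AP-1 site, spelled TGANTCA, and the p53-family decamer, with no overlap between their matches. The region of Col17a1 held the TATA box 140 and 91 bases before the start and 1 p53-family decamer from 15 to 24 bases after the start. That of Jup held the GC box on the minus strand of the printed sequence 112 bases before the start and on its plus strand 42 bases before it. None of these letters was found in the region of Sfn, and the AP-1 site was in none of the 3 regions. Of 32851 mouse promoter windows of the same length, 13.6% held the TATA box, 35.7% the GC box, 7.81% the AP-1 site and 8.36% the p53-family decamer. A match describes the letters only.

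The 4 genes were well above the dimmest signals on all 12 arrays, and none was at the floor of 225.375 below which values were set equal. The median signal of an array was between 448.4 and 496.4. Of 3477 genes tested, 21.2% passed the F-test over the 4 time points in limma, a linear model that shares its estimate of spread between genes (Benjamini-Hochberg adjusted p under 0.05), and all 4 of these genes were among them. Their adjusted p-values were 0.0165 for Col17a1, 0.0206 for Lama3, 0.0149 for Jup and 0.0126 for Sfn. The array of 0 hours replicate 3 stood furthest from the rest, with a mean Spearman correlation to the other arrays of 0.851. In bulk tissue, more cells of a type and more RNA per cell cannot be told apart.

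**Figure D1:**
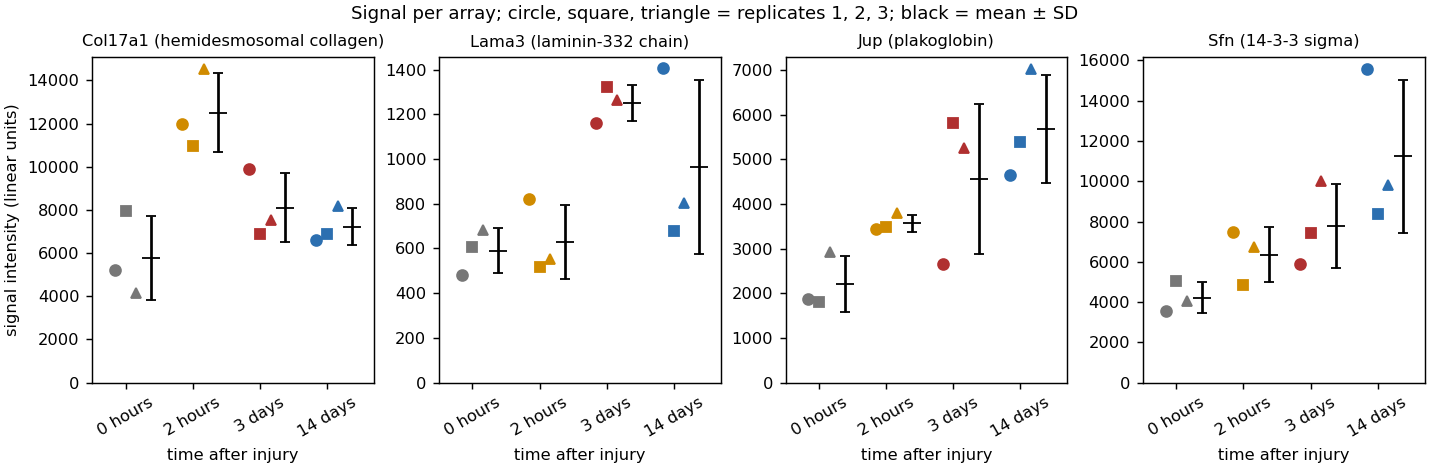
Signal intensity (linear axis from 0) of Col17a1, Lama3, Jup and Sfn on each of the 12 arrays, by time point after injury, 1 panel per gene. Circles, squares and triangles are replicates 1, 2 and 3, and black bars give the mean ± SD. Col17a1 was highest at 2 hours (mean 12510), Lama3 at 3 days (mean 1252), and Jup and Sfn at 14 days (means 5680 and 11249).

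Col17a1 rose within 2 hours of the injury. Its signal was 11996.7, 10984.8 and 14547.4 at 2 hours, against 5228.3, 7930.2 and 4134.5 at 0 hours. All 3 arrays at 2 hours were above all 3 at 0 hours. In limma the log2 change was 1.16 ± 0.24 (SE, n = 3 each; 95% interval 0.65 to 1.67), a 2.24-fold rise with an adjusted p of 0.0118. At this comparison 1 of the 4 genes passed the test, against 5.67% of all genes tested. The 3 arrays of 1 time point lay entirely above or below those of the other for 23.6% of all genes in that comparison, and for 28.7% at 3 days and 29.2% at 14 days against 0 hours. The call rested on 2 hours replicate 3, the highest array: without it the change was 1.05 with an adjusted p of 0.0693.

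At 3 days Col17a1 had signals of 9896.8, 6888.2 and 7533.2, and at 14 days 6621.9, 6878 and 8195.7. Arrays of both times overlapped those at 0 hours. Over the series the mean was 5764 ± 1954 (0 hours), 12510 ± 1836 (2 hours), 8106 ± 1584 (3 days) and 7232 ± 844 (14 days; SD, n = 3 each). Against 0 hours the log2 change was 0.53 ± 0.24 at 3 days (adjusted p = 0.154) and 0.37 ± 0.24 at 14 days (adjusted p = 0.333). Every array at 3 days was below every array at 2 hours, with a log2 change of -0.63 ± 0.24 that missed the threshold (adjusted p = 0.114 in limma). For 35.2% of all genes the arrays of these 2 times did not overlap. In order of mean signal, 2 hours came first, then 3 days, 14 days and 0 hours, and no neighbours in that order passed the test.

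Itga6, the integrin alpha6 chain that pairs with the beta4 chain in hemidesmosomes, also had its highest mean at 2 hours. Its signals there lay between 440.2 and 778.6, against 110.8 to 485.3 at 0 hours, where 2 of 3 arrays were at the floor. The fitted log2 change of 1.06 ± 0.33 did not pass the test (adjusted p = 0.0715) and is set by the floor. Itgb4, the beta4 chain, had log2 changes of -0.16, -0.38 and -0.72 at 2 hours, 3 days and 14 days against 0 hours, the last with an adjusted p of 0.059. At 14 days its 3 arrays (1328.2 to 1693.6) were all below those at 0 hours (2101.4 to 2976.5). Plec, which encodes plectin, Cd151, a tetraspanin partner of laminin-binding integrins, Itga3 and Itgb1 passed no test in any of the 5 comparisons. Krt5 and Krt14, the keratins of basal cells, and Dst, which encodes dystonin, had no probe set naming them alone and were not analysed here.

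Lama3, the alpha3 chain of laminin-332, lies on chromosome 18 from 12333417 to 12583013. The name of its probe set ends in _s_at, which marks probes that can match more than 1 transcript, so its signal may include related ones. It was higher at 3 days and showed no detectable change at 2 hours. Its signal was 820.2, 517.8 and 550.9 at 2 hours, against 481, 608.2 and 682.9 at 0 hours. These arrays overlapped, and the log2 change was 0.08 ± 0.26 (95% interval -0.49 to 0.64; adjusted p = 0.90 in limma). At 3 days the signal was 1163.7, 1324.8 and 1266.2, so that every array at 3 days was above every array at 0 hours and at 2 hours. Against 0 hours the log2 change was 1.10 ± 0.26 (SE, n = 3 each; 95% interval 0.53 to 1.66), 2.14-fold, with an adjusted p of 0.0141. Against 2 hours it was 1.02 ± 0.26, 2.03-fold, with an adjusted p of 0.027, in a comparison where 9.40% of all genes passed.

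At 3 days against 0 hours 3 of the 4 genes passed the test upward, Lama3, Jup and Sfn, against 13.3% of all genes. Without 0 hours replicate 3, 2 hours replicate 1 or 3, or 14 days replicate 3 the count was 2, without 0 hours replicate 1 or 3 days replicate 3 it was 0, and without 3 days replicate 2 it was 1. The call of Lama3 was lost without 0 hours replicate 1 (adjusted p = 0.055) and without 3 days replicate 3 (adjusted p = 0.0532). Its rise over 2 hours was lost without any one of 4 arrays (2 hours replicates 2 and 3, 3 days replicates 2 and 3), with adjusted p-values of 0.0888 to 0.113 in limma.

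At 14 days Lama3 had signals of 1409.4, 679.6 and 803.8, and replicate 1 alone was above the 3 days arrays. The mean was 590.7 ± 102 (0 hours), 630 ± 166 (2 hours), 1252 ± 81.5 (3 days) and 964 ± 390 (14 days; SD, n = 3 each). The log2 change at 14 days was 0.65 ± 0.26 against 0 hours (adjusted p = 0.125) and -0.45 ± 0.26 against 3 days (adjusted p = 0.615). Ordered by mean, 3 days was followed by 14 days, 2 hours and 0 hours. The arrays at 14 days overlapped those at 3 days, at 2 hours and at 0 hours.

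Lamb3, the beta3 chain of the same laminin, likewise had its highest mean at 3 days. It lay between 1677 and 1788.2 at 3 days, against 883 to 1561.6 at 0 hours. All arrays at 3 days were higher, but the log2 change of 0.64 ± 0.24 did not pass the test (adjusted p = 0.0839). Col7a1, the anchoring fibril collagen that fastens the basement membrane to the dermis, was lowest at 3 days and highest at 14 days. Its signals were 2259.2 to 4709.4 at 14 days, against 972 to 1173.5 at 3 days, a log2 change of 1.51 ± 0.24 (adjusted p = 0.002 in limma) where 3.39% of all genes passed and 19.7% had no overlap of arrays. Against 0 hours (1508.5 to 1824.8) it rose by 0.95 ± 0.24 at 14 days (adjusted p = 0.0225). That call was lost without 0 hours replicate 1, 0 hours replicate 3 or 14 days replicate 1, where the change was 0.91, 0.90 and 0.65 (adjusted p 0.05 to 0.101).

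Of 13 hemidesmosome and laminin-332 genes listed, 10 had a probe set and all 10 were tested. At each of the 3 times against 0 hours 1 of 10 passed the test, upward, and none fell: Col17a1 at 2 hours, Lama3 at 3 days and Col7a1 at 14 days. Of all genes tested 5.67%, 13.3% and 10.2% passed at these times, so the count does not set the list apart. Over the 12 fits that left out 1 array, 0 to 2, 0 to 4 and 0 to 1 rose at these times. The median log2 change of the 10 was -0.07 at 2 hours, 0.07 at 3 days and 0.06 at 14 days, against 0.05, 0.02 and 0.05 for all genes tested. Of 14 other basement membrane genes tested (16 on the array, 27 listed), 1 fell at all 3 times, Sparc, a matricellular calcium-binding protein, by 1.07, 1.15 and 0.67 on the log2 scale. Its fall at 14 days was lost without 0 hours replicate 1 or 3, or without any of the 14 days arrays (adjusted p 0.0638 to 0.115). In the same list 1 gene rose, Col18a1, the collagen that yields endostatin, by 0.87 ± 0.20 at 3 days (adjusted p = 0.0116). It lost that call without 3 days replicate 2 or 3 (adjusted p = 0.0526 and 0.0548).

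Jup was highest at the last time measured. Its signal was 4641, 5384.7 and 7014.3 at 14 days, against 1879.2, 1805.6 and 2927.7 at 0 hours. The 14 days arrays were all higher, with a log2 change of 1.38 ± 0.28 (SE, n = 3 each; 95% interval 0.78 to 1.98), 2.60-fold, and an adjusted p of 0.00893 in limma. That call held in each of the 12 fits that left out 1 array, with changes of 1.22 to 1.60. At 14 days 2 of the 4 genes passed upward, Jup and Sfn, against 10.2% of all genes.

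At 3 days Jup had signals of 2654.2, 5801.9 and 5242, and the first of these was below 0 hours replicate 3, so the groups overlapped. The log2 change against 0 hours was 1.01 ± 0.28, 2.01-fold (adjusted p = 0.0293). It passed no longer without 0 hours replicate 1, 0 hours replicate 2, 3 days replicate 2 or 3 days replicate 3, with adjusted p-values of 0.0771 to 0.127. At 2 hours the signals of 3447.1, 3472.7 and 3785.9 were all above those at 0 hours, yet the log2 change of 0.73 ± 0.28 did not pass (adjusted p = 0.143). Its means followed the order of time, with 2204 ± 628 (0 hours), 3569 ± 189 (2 hours), 4566 ± 1679 (3 days) and 5680 ± 1214 (14 days; SD, n = 3 each). Of its neighbours in time none differed by the test, the changes being 0.28 ± 0.28 at 3 days against 2 hours and 0.37 ± 0.28 at 14 days against 3 days.

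Of 23 desmosome and adherens junction genes listed, 19 had a probe set and 15 were tested. At 14 days against 0 hours 3 of 15 rose and none fell, with a median of 0.33: Jup, Dsc1 and Cdh3. With 1 array left out the count was between 1 and 5. Of the 15 genes 2 passed at 2 hours, 1 at 3 days and 3 at 14 days, against 5.67%, 13.3% and 10.2% of all genes tested. Dsc1, a desmosomal cadherin of the upper epidermis, was at 513.9 to 763 at 14 days, against 153.9 to 349.4 at 0 hours with 1 array at the floor. Its highest signal was 394.8 at 2 hours and 393.7 at 3 days, so only its 14 days arrays exceeded the filter of 475.55. Dsc1 was thus tested only because it was high at 14 days, and its rise there adds no support to the count. Its log2 change was 1.12 ± 0.26 (adjusted p = 0.0154), lost without 0 hours replicate 1 (adjusted p = 0.0665) or 14 days replicate 1 (adjusted p = 0.0788). Cdh3, the P-cadherin of basal and hair follicle cells, was at 1113.1 to 1414 at 14 days, against 639.2 to 877.2 at 0 hours. It changed by 0.76 ± 0.18 (adjusted p = 0.0183), lost without 14 days replicate 1 or 3 (adjusted p = 0.0648 and 0.0649). At 3 days Jup alone passed, and the median was 0.10.

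At 2 hours Ctnna1 and Vcl, which encode the actin linkers alpha-catenin and vinculin, rose by 0.82 ± 0.23 and 0.85 ± 0.24, with a list median of 0.27. Their adjusted p-values of 0.0472 and 0.0486 were close to the threshold, and each was lost in 10 of the 12 fits that left out 1 array (adjusted p up to 0.131 and 0.186). Ctnnb1, beta-catenin, had log2 changes of 0.15, 0.15 and 0.66 at the 3 times and passed at none (adjusted p = 0.118 at 14 days). Dsp, which encodes desmoplakin, the plaque protein that plakoglobin joins, had changes of 0.45, -0.04 and 0.11. Of 9 Wnt pathway genes tested (13 on the array, 23 listed), 1 passed, Ccnd1, the cyclin of G1 phase, which rose by 1.04 ± 0.27 at 14 days (adjusted p = 0.0235), where 10.2% of all genes passed. It lost the call without 0 hours replicate 1, 14 days replicate 2 or 14 days replicate 3 (adjusted p 0.0717 to 0.0967).

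Sfn had its highest signals at 14 days, as Jup did. They were 15563.9, 8391.9 and 9791.9 at 14 days, against 3539.1, 5065.6 and 4070.5 at 0 hours. No arrays overlapped, and the log2 change was 1.38 ± 0.27 (SE, n = 3 each; 95% interval 0.80 to 1.95), 2.60-fold, with an adjusted p of 0.00734 in limma. Each fit that left out 1 array kept this call, with changes of 1.12 to 1.56.

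At 3 days Sfn was at 5904.4, 7413.6 and 10016, all above the 0 hours arrays. The log2 change of 0.86 ± 0.27, 1.82-fold, had an adjusted p of 0.0475, just under the threshold. It was lost in 7 of the 12 fits that left out 1 array, those without 0 hours replicate 1 or 3, 2 hours replicate 1 or 3, 3 days replicate 2 or 3, or 14 days replicate 3. It was 0.66 (adjusted p = 0.206) without 3 days replicate 3. The signals at 2 hours, 7502.7, 4827.6 and 6754.1, overlapped those at 0 hours (log2 change 0.58 ± 0.27, adjusted p = 0.219). Mean signals were 4225 ± 775 (0 hours), 6361 ± 1380 (2 hours), 7778 ± 2080 (3 days) and 11249 ± 3802 (14 days; SD, n = 3 each). Steps between neighbouring times did not pass, with 0.28 ± 0.27 at 3 days against 2 hours and 0.51 ± 0.27 at 14 days against 3 days.

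Of the other 14-3-3 genes, 1 rose and 1 fell. All 7 listed genes of the family had a probe set and 6 were tested. At 2 hours none of the 6 passed in limma, with a median log2 change of 0.47. An unadjusted p under 0.05 was found for 5 of them, and for 775 of all 3477 genes tested. At 3 days 2 rose and 1 fell, and at 14 days 1 rose and 1 fell. The shares of all genes that passed at the 3 times were 5.67%, 13.3% and 10.2%. Ywhah, the eta isoform, was at 1479.7 to 2002.3 at 3 days, against 794.2 to 1314.1 at 0 hours, a change of 0.83 ± 0.21 (adjusted p = 0.0161) that was lost without 0 hours replicate 1 (adjusted p = 0.065) or 3 days replicate 3 (adjusted p = 0.084). Ywhab, the beta isoform, fell at 3 days by 0.92 ± 0.27 (adjusted p = 0.0361) and at 14 days by 0.90 ± 0.27 (adjusted p = 0.0459). Its 0 hours arrays were at 1116.6, 1188.7 and 2585.6, and without the highest, 0 hours replicate 3, the changes were -0.53 and -0.51 and neither passed. Further arrays each ended these calls, 4 at 3 days and 8 at 14 days. Ywhag, Ywhaq and Ywhaz passed in none of the 5 comparisons.

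Sfn was also the one gene of the p53 list that rose. Of 15 p53 targets and family genes tested (15 on the array, 25 listed), it rose at 3 and at 14 days, and Ccng1, a cyclin G1 gene induced by p53, fell by 1.00 ± 0.25 at 14 days (adjusted p = 0.0219). The shares of all genes that passed at these 2 times were 13.3% and 10.2%, so the counts do not set the list apart. Ccng1 lost that call without 0 hours replicate 1, 14 days replicate 1 or 14 days replicate 3 (adjusted p 0.0521 to 0.0896). Trp63, the p63 gene that maintains basal keratinocytes, was at 1827.3 to 2072.6 at 2 hours, against 960 to 1561.7 at 0 hours. The log2 change of 0.71 ± 0.21 missed the threshold (adjusted p = 0.0623) although no arrays overlapped. At 3 days it was at 878.5 to 1168.2 and had fallen by 0.91 ± 0.21 against 2 hours (adjusted p = 0.0146), which did not hold without 2 hours replicate 1, 3 days replicate 2 or 3 days replicate 3 (adjusted p 0.0535 to 0.0775).

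Of 10 genes of the G2 to M transition, where 14-3-3 proteins bind regulators, 8 had a probe set and 3 were tested. Cdk1, the mitotic kinase, rose by 1.34 ± 0.18 at 3 days (adjusted p = 0.000503) and by 1.68 ± 0.18 at 14 days (adjusted p = 0.00011), and both calls held with any 1 array left out. Ccnb2, a mitotic cyclin, rose by 0.91 ± 0.26 at 14 days (adjusted p = 0.0414), a call lost in 8 of the 12 fits that left out 1 array. Of the 3 tested, none fell. Calls upward were 1 of 3 at 3 days and 2 of 3 at 14 days, against 13.3% and 10.2% of all genes in either direction. The mean log2 signal of the 3 was 8.73 (0 hours), 8.32 (2 hours), 9.42 (3 days) and 9.80 (14 days). Genes dim at first could pass the filter through their later arrays alone, so these counts do not show a direction for the list.

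**Figure D2:**
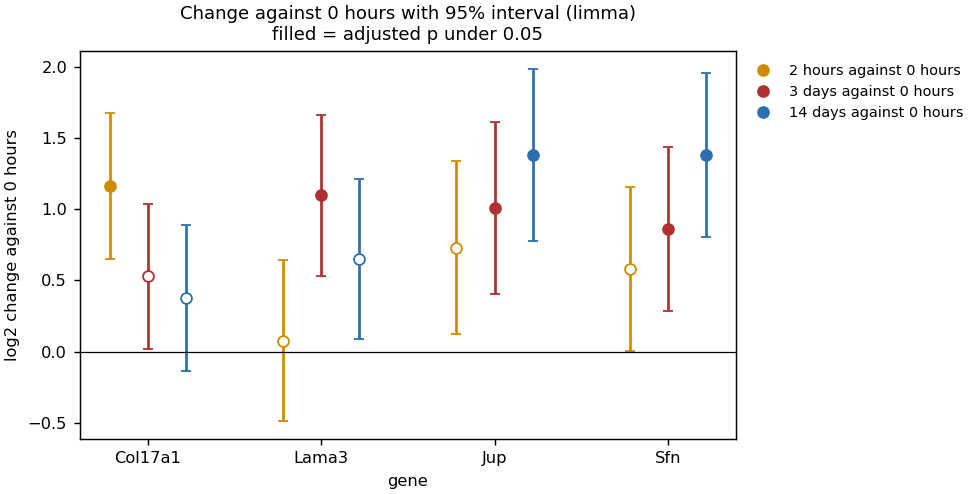
Log2 change against 0 hours with its 95% interval from limma for Col17a1, Lama3, Jup and Sfn at 2 hours, 3 days and 14 days (n = 3 arrays each); filled points passed the test. Col17a1 passed at 2 hours, Lama3, Jup and Sfn at 3 days, and Jup and Sfn at 14 days.

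Whether the 4 genes differed from each other in course was tested on the log2 difference of 2 genes on each array. The exact permutation test over all 15400 divisions of the 12 arrays into 4 sets of 3 compared the differences between time points, and p-values were adjusted over 41 pairs. This test was chosen after the values were seen. Whether the probes of 2 genes respond equally to a change was not tested. In all, 11 of the 41 pairs passed. How often other pairs of tested genes would pass was not computed, so the counts of pairs given below do not set these genes apart. Of the 6 pairs among the 4 genes 2 passed, Lama3 with Sfn and Col17a1 with Sfn. The change of Lama3 minus that of Sfn was -0.51 at 2 hours, 0.23 at 3 days and -0.73 at 14 days (exact p = 0.00597, adjusted 0.0306). For Col17a1 minus Sfn it was 0.58, -0.33 and -1.0, with an adjusted exact p of 0.0499 at the edge of the threshold. Col17a1 and Lama3 differed by 1.09, -0.57 and -0.27, which did not pass (exact p = 0.0221, adjusted 0.0637). For Jup and Sfn the differences were 0.15, 0.15 and 0.00 (adjusted exact p = 0.966), with an SD of single arrays between 0.32 and 0.69 within a time point, so that this comparison does not show them equal.

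The same test set each gene against its structural partners. Col17a1 differed in course from 4 of 8 hemidesmosome and laminin-332 partners, Itgb4, Itgb1 and Col7a1 (adjusted exact p = 0.0285 each) and Lamb3 (adjusted exact p = 0.0461). Against Itgb4 its change was larger by 1.32 at 2 hours, 0.91 at 3 days and 1.09 at 14 days. Lama3 differed from 2 of 8, Itgb4 and Col7a1 (adjusted exact p = 0.0285 each), and exceeded the change of Col7a1 by 1.65 at 3 days. With its laminin partner Lamb3 no difference passed (adjusted exact p = 0.119), nor did one between Col17a1 and Itga6 (adjusted exact p = 0.793).

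Jup differed from 1 of 14 junction genes, Ctnnd1, which encodes p120 catenin (adjusted exact p = 0.0285). The brighter probe set of Ctnnd1, used for the test, averaged 3226 at 14 days, against 3474 at 0 hours. A second probe set of Ctnnd1 went the other way, with a mean of 745.7 at 14 days, against 408.1 at 0 hours, so this difference depends on the probe set. Between Jup and beta-catenin (Ctnnb1) no difference passed (adjusted exact p = 0.413). Sfn differed from 2 of 5 relatives, Ywhab (adjusted exact p = 0.0285) and Ywhag (adjusted exact p = 0.0499), and exceeded the change of Ywhab by 1.38, 1.78 and 2.28 at the 3 times. Without 0 hours replicate 3 the changes of Ywhab itself were only -0.53 at 3 days and -0.51 at 14 days. The size of these differences thus rests in part on that array, and the pair test was not repeated without it.

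**Figure D3:**
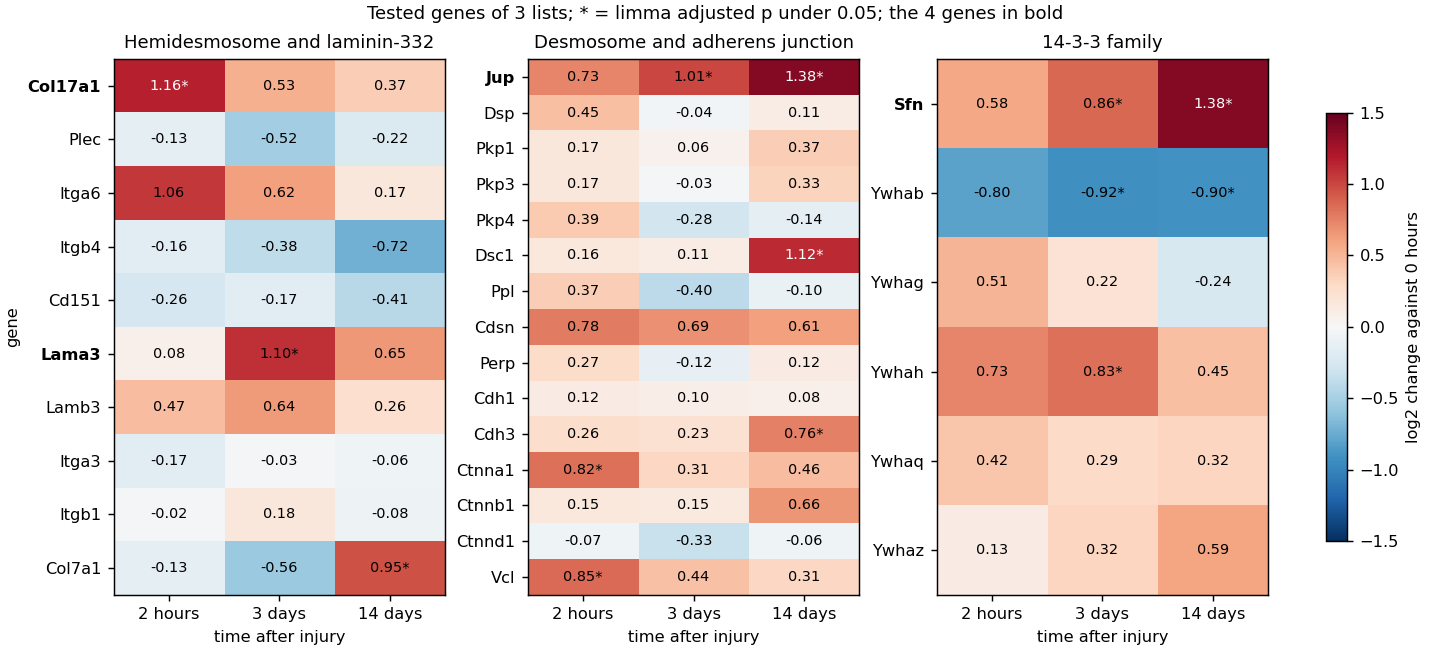
Log2 change against 0 hours for the tested genes of the hemidesmosome and laminin-332, desmosome and adherens junction, and 14-3-3 lists at 2 hours, 3 days and 14 days, as a colour map with 1 row per gene, red for higher and blue for lower. An asterisk marks an adjusted p under 0.05 in limma, and bold names are the 4 genes described. Of the hemidesmosome genes 1 of 10 passed at each time, and of the junction genes 2, 1 and 3 of 15.

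Of 22 basal keratinocyte markers listed, 15 had a probe set and 13 were tested, among them the 4 genes described here. At 2 hours 1 of the 13 rose, and at 3 and at 14 days 3 each, and none fell, against 5.67%, 13.3% and 10.2% of all genes tested in either direction. With 1 array left out 0 to 3, 0 to 5 and 2 to 3 rose. Cdh3 at 14 days was the one of these calls outside the 4 genes, 1 of 9 other markers. The mean log2 signal of the 9 other markers was 10.25 ± 0.31 (0 hours), 10.49 ± 0.15 (2 hours), 10.29 ± 0.05 (3 days) and 10.34 ± 0.18 (14 days; SD, n = 3 each). Its change at 14 days against 0 hours was 0.09, against 1.11 for the mean of 12 suprabasal and barrier genes. Jup and Sfn changed by 1.38 each in that comparison. Which cells gave the signal of the 4 genes was not tested.

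Markers of other cells and a measure of RNA quality differed between times beside these genes. Of 29 skeletal muscle genes tested 3 fell at 2 hours, 19 at 3 days and 17 at 14 days, where 5.67%, 13.3% and 10.2% of all genes passed in either direction. With 1 array left out 0 to 4, 6 to 23 and 1 to 19 fell. The count at 3 days was 8 without 0 hours replicate 1 and 6 without 3 days replicate 3. At 14 days it was 2 without 0 hours replicate 1, 1 without 14 days replicate 1 and 10 without 14 days replicate 2 or 3. Their mean log2 signal was 13.21 ± 0.47 (0 hours), 12.66 ± 0.10 (2 hours), 12.07 ± 0.57 (3 days) and 12.23 ± 0.27 (14 days; SD, n = 3 each). The log2 ratio of the 3′ to the 5′ probe set of Gapdh, which grows as RNA is broken or copied incompletely, was 1.99 ± 0.29, 1.54 ± 0.46, 0.52 ± 0.50 and 0.21 ± 0.08 in the same order (SD, n = 3 each). When the fit included the Gapdh ratio, 4 of 3477 genes passed at 3 days and 2 at 14 days against 0 hours. With the muscle mean the counts were 5 and 15.

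None of the calls of Lama3, Jup and Sfn at these times held with either covariate. At 3 days the log2 changes with the Gapdh ratio were 0.79 for Lama3, 0.70 for Jup and 0.27 for Sfn, and with the muscle mean 0.63, 0.52 and 0.11. At 14 days Jup had 1.01 and 0.96 and Sfn 0.65 and 0.73 with the Gapdh ratio and the muscle mean. Both measures ran with time, so their part and that of the injury cannot be told apart here. The 2 hours rise of Col17a1 was as large with the Gapdh ratio (1.26, adjusted p = 0.0237) and with the muscle mean (1.24, adjusted p = 0.0206).

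The marker counts that follow can be read against the same shares of all genes, 5.67%, 13.3% and 10.2%, with 1 limit. The filter asked for 3 or more bright arrays, so a gene dim at other times could enter through 1 time point alone. How many genes of each list did so was not counted. Of 12 suprabasal and barrier genes tested none passed in limma at 2 hours (2 with an unadjusted p under 0.05), 1 rose at 3 days and 6 rose at 14 days (0 to 2 and 4 to 6 with 1 array left out). Filaggrin (Flg) rose by 2.82 ± 0.24 and the envelope protease gene Casp14 by 2.80 ± 0.22 at 14 days. Dsc1 was also among the 6, and only its 14 days arrays exceeded the filter. Wound keratinocyte genes rose in 4, 11 and 9 of 13 cases at 2 hours, 3 days and 14 days (1 to 4, 10 to 11 and 8 to 11 with 1 array left out), with a mean list level at 14 days that ranged from 11.95 to 13.54 between arrays. Of 12 hair follicle genes 2 fell at 2 hours and 2 at 3 days, and 8 rose at 14 days. With 1 array left out 0 to 3 and 1 to 4 of them fell and 6 to 9 rose. The mean log2 signal of the 12 was 9.18 (0 hours), 8.43 (2 hours), 8.33 (3 days) and 10.88 (14 days). Hair follicle genes could thus be admitted by their 14 days arrays, and the count of rises there is limited by this. Macrophage genes rose in 1, 19 and 2 of 20 cases, and in 0 to 1, 18 to 20 and 0 to 7 with 1 array left out. The 7 came without 2 hours replicate 1, and none rose at 14 days without 0 hours replicate 1, 14 days replicate 1 or 14 days replicate 3. Of 15 fibroblast genes 3 fell at 2 hours, 1 rose and 2 fell at 3 days, and 3 rose at 14 days. With 1 array left out 2 to 3 fell at 2 hours, 0 to 4 rose and 2 to 3 fell at 3 days, and 1 to 3 rose at 14 days. Of 5 endothelial genes none passed against 0 hours in limma (1, 1 and 2 with an unadjusted p under 0.05 at the 3 times), and of 9 adipocyte genes 1 fell at 14 days (0 to 2 with 1 array left out). Their part in the changes of the 4 genes was not tested.

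**Figure D4:**
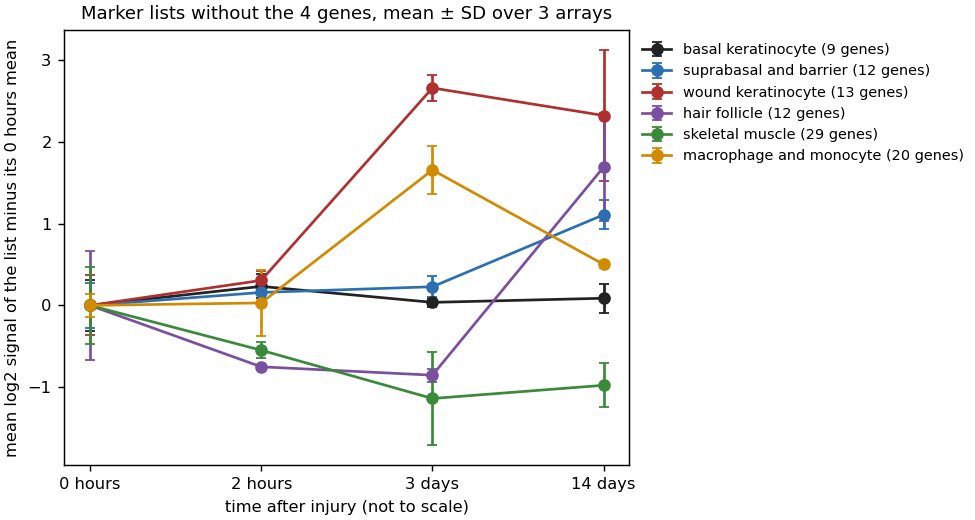
Mean log2 signal of 6 marker lists minus the list's mean at 0 hours, by time point after injury (not to scale), with the 4 genes left out. Points are means and bars the SD over 3 arrays, 1 line per list. Muscle genes were lower by 1.14 at 3 days, wound keratinocyte genes higher by 2.66, and the basal list stayed within 0.23 of its 0 hours mean at each time.

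For each of the 4, the 5 genes most similar in signal were found by Pearson's r of log2 signal over the 12 arrays, which share 4 time points. With each group's mean taken off, r of these genes still ran from 0.563 (Smc4 with Jup) to 0.942 (Krt16 with Lama3). The ranking thus reflects the spread between arrays of 1 time point as well as the course. For Col17a1 they were Ubl3 (r = 0.943), Gas5 (0.921), Anxa1 (0.917), Tomm7 (0.915) and Tmem59 (0.901). Anxa1, annexin A1, itself rose at 2 hours by 0.80 ± 0.20 (adjusted p = 0.036), a call lost without 0 hours replicate 1 or 3, 2 hours replicate 1 or 3, or 3 days replicate 2 (adjusted p 0.0544 to 0.162). For Lama3 they were 2610528A11Rik (0.917), Ctsc (0.915), Tagln2 (0.913), Grn (0.912) and Krt16 (0.911), the last a keratin of wound-edge epidermis. Among these, 2610528A11Rik was at the floor on 7 of 12 arrays and Krt16 on 2. By Spearman correlation 2610528A11Rik ranked only 65 and Ctsc 47. Pearson's r ignores the size of a change, and the group means of Krt16 spanned 5.07 on the log2 scale. For Jup they were Celsr2 (0.940), Arf3 (0.922), Hr (0.905), Shc1 (0.897) and Smc4 (0.868). For Sfn they were Arhgap39 (0.941), Srsf9 (0.940), Postn (0.915), Gsto1 (0.905) and Sae1 (0.894). By Spearman correlation Gsto1 ranked only 37.5 for Sfn, and Gas5 25.5 for Col17a1. No gene stood in more than 1 of these 4 sets, and none of the 4 genes stood in the set of another. Among themselves, Lama3 and Sfn had r = 0.702, Jup and Sfn 0.752, and Lama3 and Jup 0.503. Col17a1 had r = -0.089 with Lama3, 0.101 with Jup and 0.184 with Sfn. Within time points, after each group's mean was taken off, r was 0.775 for Lama3 and Sfn, 0.133 for Jup and Sfn and 0.021 for Lama3 and Jup. For Col17a1 it was then -0.216 with Lama3, -0.529 with Jup and 0.060 with Sfn.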

How the data were processed

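Gene expression in mouse skin was measured with 1 oligonucleotide array per sample. The deposited values are linear signal intensities per probe set. The labels name no software, scaling target or filter. Groups came from the sample labels. The 4 genes and the gene lists were chosen with earlier results of these data known.

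Of 7275 probe sets, 27 were controls, 6551 named exactly 1 gene, 251 several and 446 none. The 2% trimmed means of the arrays lay within 8.56% of their mean (limit 10%), so the deposited intensity was not rescaled. A floor of 225.375, the 25th percentile over all arrays, was applied before taking log2. A probe set was tested if it exceeded 475.55, the median over all arrays, on 3 or more arrays. A gene could thus be tested through 1 time point alone. The probe set with the highest mean log2 signal stood for each gene (3477 genes). Choosing the probe set by mean linear signal touched none of the 4 genes, which have 1 probe set each.

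All 12 arrays were fitted in limma 3.58.1 (R 4.3.3), with each time point as a coefficient (degrees of freedom 8 residual, 6.64 prior), and p-values were Benjamini-Hochberg adjusted over all genes tested and called under 0.05. With 3 arrays per group, the smallest p an exact test between 2 times can reach is 0.1. Tables and figures used Python 3.11.15, pandas 2.3.3 and matplotlib 3.10.9. The number of arrays limits the precision. The procedure was tested on simulated data.

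Named genes are the 4, their structural relatives, up to 4 called genes with the smallest p per list and comparison, and the 5 with the highest Pearson's r. The 16 lists were written from general knowledge. The covariate fits and the pairwise test of course rest on patterns seen in these data. Same-numbered arrays showed no clear pairing: 2 of 18 pairs had a correlation over 0.1 (median -0.066). Both were of 0 hours with 3 days (0.165 for replicate 1 and 0.195 for replicate 3). With 3 arrays per time point this check cannot exclude a pairing. Alternatives were other scalings, floors, filters, variance models, covariates, a replicate block and each array left out.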

Additional observations from a re-analysis of the deposited data

How the results depend on the processing

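Direction against 0 hours held for Col17a1, Jup and Sfn at each time in all 27 alternatives tried. Lama3 at 2 hours, which was not called, changed sign in 4: -0.019 with the Gapdh ratio as covariate, -0.15 with the muscle mean, -0.06 without 0 hours replicate 1 and -0.13 without 2 hours replicate 1. Calls kept were 25 of 27 for Jup and for Sfn at 14 days, 24 for Col17a1 at 2 hours, and at 3 days 21 for Lama3, 17 for Jup and 10 for Sfn.

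At 3 days Jup lost its call under quantile normalization (0.92), and Sfn under quantile normalization (0.81), median scaling (0.83), a floor at the 10th percentile (0.86) and array weights (0.86). With no filter on dim probe sets, and with every probe set tested apart and no filter, Lama3 (1.10), Jup (1.01) and Sfn (0.86) lost theirs. More features were then tested, and in the second of these Col17a1 at 2 hours also lost its call (1.16, adjusted p = 0.0533). Fitting only the 2 time points compared leaves fewer arrays, and Col17a1 at 2 hours (1.16, adjusted p = 0.0774) and Jup (1.01) and Sfn (0.86) at 3 days were no longer called. Under the replicate block Sfn at 3 days (0.86) had an adjusted p of 0.0637, and no other call of the 4 genes changed. The labels do not say that same-numbered arrays are paired.

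With the Gapdh ratio as a covariate the changes at 3 days were 0.79 for Lama3, 0.70 for Jup and 0.27 for Sfn, and at 14 days 1.01 for Jup and 0.65 for Sfn. With the muscle mean they were 0.63, 0.52, 0.11, 0.96 and 0.73 in the same order. None was called, and Sfn at 3 days against 2 hours changed sign (-0.13 and -0.11). The cause was not tested. The F-test's adjusted p for Col17a1, Lama3, Jup and Sfn was 0.0609, 0.0817, 0.075 and 0.0638 with no filter, and 0.0663, 0.0877, 0.081 and 0.0692 with every probe set. For Lama3, Jup and Sfn it was 0.441, 0.592 and 0.675 in the Gapdh fit and 0.304, 0.286 and 0.17 in the muscle fit.

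With 1 array left out, the change at 2 hours ranged from 0.95 to 1.42 for Col17a1 and from -0.13 to 0.20 for Lama3. At 3 days it ranged from 0.31 to 0.78 for Col17a1, which was called without 0 hours replicate 2 (0.78, adjusted p = 0.0303), from 0.96 to 1.21 for Lama3, from 0.80 to 1.36 for Jup and from 0.66 to 1.04 for Sfn. The F-test's adjusted p ranged from 0.00404 to 0.0749 for Col17a1 and from 0.0109 to 0.0625 for Lama3. Col17a1 at 3 days against 2 hours was called with array weights (-0.80, adjusted p = 0.00472).

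Counts of all genes called at 2 hours, 3 days and 14 days against 0 hours were 197, 462 and 353. With only 2 time points fitted they were 63, 216 and 153, and with 1 array left out they ranged from 72 to 316, 178 to 558 and 119 to 486. At 3 days the count was 294 with no filter, 4 in the Gapdh fit and 5 in the muscle fit. At 14 days it was 2 and 15 with these covariates, and at 2 hours 119 with array weights, 108 with the Gapdh ratio and 131 with every probe set. For 3 days against 2 hours the count was 327, against 174 with no filter, 195 with every probe set, 935 with array weights, 16 in the Gapdh fit and 97 in the muscle fit. For 14 days against 3 days it was 118, against 63, 72 and 364 in the first 3 of these settings. Between later times the ranges with 1 array left out were 112 to 409 and 59 to 127. The pairwise tests of course were run in 1 setting only. The replicates number 3 per time point, and a missed threshold does not show that a gene was unchanged.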
